A study of Rattus norvegicus with 3 samples.

Results

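The 6 genes described here encode intermediate filament proteins: Vim (vimentin), Nes (nestin), Ina (alpha-internexin), and Nefl, Nefm and Nefh (the light, medium and heavy neurofilament proteins). They were taken by symbol from the gene rows of the deposited matrices, which list 29772 genes, and all 6 symbols were found. The cells were cortical cells of rat embryos with a wild-type genotype, freshly dissociated, whose transcripts were read from the 3′ end in droplets, 1 cell each. There were 3 libraries, and the submitters titled them with embryonic day 14, 16 or 18, so they go here by these labels. There is 1 library per label and the labels name no treatment beyond dissociation, so no value has a replicate check and no test between labels was possible. The protocol text in the labels also describes cultured cells, oligonucleotide tagging and a sort for live human cells. Those steps do not match freshly prepared rat tissue, and which of them these libraries went through is not known.

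Intermediate filaments are rope-like polymers that give cells mechanical strength. Radial glia, the stem cells of the embryonic cortex, build them mainly from vimentin and nestin, and these proteins are classical markers of neural progenitors. As progenitors give rise to intermediate progenitors and then to neurons, the network is rebuilt: alpha-internexin is known as an early neuronal filament protein, and the neurofilament proteins follow as axons grow and mature.

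Promoter sequence is shown for the members that a RefSeq table of the rat assembly GRCr8 held, because Vim and Nes were low and Ina high in the same neurons. The table matched 3 of the 6 members, and Nefl, Nefm and Nefh are named only. Each line gives the 250 bases before the annotated start, read 5′ to 3′ on the gene's strand. Capitals mark exact matches, on either strand, to the TATA box (TATAAA), to the CCAAT box (CCAAT) and to the GC box (GGGCGG). The Vim stretch is chr17:81577011-81577260, the Nes stretch chr2:175736338-175736587 and the Ina stretch chr1:255837879-255838128, all on the plus strand.
Vim: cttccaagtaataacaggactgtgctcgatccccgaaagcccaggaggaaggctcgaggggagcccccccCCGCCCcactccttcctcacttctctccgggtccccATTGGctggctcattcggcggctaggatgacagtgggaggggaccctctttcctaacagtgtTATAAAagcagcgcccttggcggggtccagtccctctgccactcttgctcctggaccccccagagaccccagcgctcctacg
Nes: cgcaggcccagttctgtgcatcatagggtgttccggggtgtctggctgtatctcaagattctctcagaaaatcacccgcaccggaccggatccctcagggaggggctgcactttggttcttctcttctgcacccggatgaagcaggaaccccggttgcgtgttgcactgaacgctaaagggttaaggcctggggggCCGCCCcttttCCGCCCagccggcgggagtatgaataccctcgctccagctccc
Ina: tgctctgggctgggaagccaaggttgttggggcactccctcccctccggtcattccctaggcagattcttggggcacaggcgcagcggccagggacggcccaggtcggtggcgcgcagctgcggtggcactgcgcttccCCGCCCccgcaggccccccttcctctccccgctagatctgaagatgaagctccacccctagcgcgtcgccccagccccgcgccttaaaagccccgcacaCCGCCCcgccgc
The Vim stretch held 1 match to each of the 3 motifs, and its TATAAA match began 82 bases before the start. The Nes and Ina stretches each held 2 matches to GGGCGG and none to TATAAA or CCAAT. The E-box letters CANNTG, which are not capitalised, matched once, in Ina. Over 33469 promoters of the same length, TATAAA was found in 12.9%, CCAAT in 34.0%, GGGCGG in 30.5% and CANNTG in 65.5%. A match is a description of the letters, not of binding.

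After filtering, 4286 cells labelled E14, 4977 labelled E16 and 5431 labelled E18 remained, with median depths of 11199.5, 12264 and 10477 UMIs (unique molecular identifiers, each standing for 1 captured transcript). Cells were clustered without the 6 members, and clusters were named from marker genes as radial-glia-like, intermediate-progenitor-like, newborn or maturing excitatory-neuron-like, and other classes. The suffix is dropped below. In label order there were 362, 2913 and 1755 radial glia, 489, 414 and 1084 intermediate progenitors, and 1200, 609 and 1827 newborn neurons. Maturing neurons numbered 2129 under the label E14 and 463 under E18, and no cell labelled E16 was named so. Of 26 clusters, 12, with 60.6% of the cells, came over 90% from 1 library. The libraries shared 7 or 8 cell barcodes per pair.

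The labels did not order the stage genes of radial glia by day. Hmga2, an early-stage gene, was at 12.7, 222 and 21.5 CPM (UMIs per 1000000 UMIs of the group) under the labels E14, E16 and E18. Aldoc, which is known to increase in late radial glia, was at 726, 17.1 and 238 CPM, and Tnc, another late-stage gene, at 123, 0.155 and 6.90 CPM. Radial glia labelled E16 were therefore highest for the early gene and lowest for the late genes, and those labelled E14 were highest for the late genes. Library and age cannot be told apart here, so values are given by label and no order by day is drawn.

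The newborn neurons labelled E16 need a caution of their own. Of these 609 cells, 605 formed a single cluster, led by Calb1, Calb2, Lhx9 and Ebf1. A first version of the naming rule left that cluster unnamed, because the class of its highest marker score was Cajal-Retzius, the early-born Reln-positive neurons of the marginal zone. The rule was changed after the clusters and the members' levels in them had been seen, and under the first version the E16 newborn class holds 4 cells. Genes outside the newborn marker list were at 533 CPM for Tbr1 and 537 CPM for Neurod6, both excitatory neuron transcription factors, and at 175 CPM for Slc17a6, a glutamate transporter. Reln was at 142 CPM, Tp73, a Cajal-Retzius gene, at 3.61 CPM, and the GABA-synthesis gene Gad1 had 0 UMIs. In the cluster named Cajal-Retzius, cells labelled E16 had more Reln (1200 CPM) and Tp73 (574 CPM) and less Neurod6 (78.3 CPM). They also had Tbr1 at 594 CPM and Slc17a6 at 362 CPM, both above the newborn cluster, so these genes do not separate the clusters. Calb2 was at 217 CPM in the newborn cluster and 538 CPM in the Cajal-Retzius cluster, and Lhx9 at 178 and 353 CPM. The newborn cluster led by Pcp4 under E18 and that led by Selenom and Pdzrn3 under E14 had more Neurod6, at 1339 and 1179 CPM. They had less Reln (5.20 and 4.95 CPM), Calb2 (5.11 and 0.707 CPM) and Lhx9 (17.3 and 3.11 CPM) than the cluster of 605 cells. All statements below on newborn neurons labelled E16 rest on the naming of that cluster.

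Vim was the most abundant member in progenitors. In radial glia it was at 4519 CPM (95% Poisson interval 4463 to 4576) under E14, 2179 (2165 to 2192) under E16 and 2916 (2895 to 2937) under E18. Intermediate progenitors held 2608, 1398 and 1767 CPM, newborn neurons 226, 390 and 317 CPM, and maturing neurons 149 CPM under E14 and 224 CPM under E18. The same order of classes, radial glia above intermediate progenitors above neurons, was found under every label. These intervals, like all others below, cover counting error only.

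Nes was scarcer than Vim and was lower already in intermediate progenitors. Radial glia held 326, 224 and 367 CPM in label order, intermediate progenitors 74.4, 94.1 and 95.8 CPM, and newborn neurons 5.81, 13.5 and 8.98 CPM. Maturing neurons held 3.47 CPM under E14 and 5.94 under E18, resting on 107 and 38 UMIs. Between radial glia and intermediate progenitors the log2 ratio of Nes was -2.13, -1.25 and -1.94, while that of Vim was -0.79, -0.64 and -0.72. Vim UMIs per Nes UMI, a ratio within the same cells, accordingly went from 13.8, 9.74 and 7.95 in radial glia to 35.1, 14.9 and 18.4 in intermediate progenitors.

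Ina ran the other way. It was at 21.0, 10.7 and 7.58 CPM in radial glia and at 23.5, 10.5 and 11.1 CPM in intermediate progenitors. Cells that should lack Ina held similar levels in part: 38.5 CPM (22.8 to 60.9) in 7 endothelial cells labelled E14, 18.8 CPM (12.8 to 26.8) in 55 choroid plexus cells labelled E18, and 4.18 CPM (2.16 to 7.30) in 154 choroid plexus cells labelled E16. The first 2 values rest on few cells: Ina was found in 42.9% of the 7 and 7.27% of the 55. Microglial cells held less, at 9.33 CPM (1.13 to 33.7) under E14 and 3.45 (0.0873 to 19.2) under E18. Meningeal cells labelled E18 held 13.7 CPM (5.90 to 26.9). Under E14 and E18 the progenitor levels of Ina were not above the highest of these values. They were above the microglial values, but inside their intervals. Under E16 radial glia and intermediate progenitors (interval 7.80 to 13.9) were both above choroid plexus cells. In newborn neurons it was at 96.0 CPM (89.8 to 103) under E14, 834 (810 to 858) under E16 and 398 (388 to 408) under E18, and in maturing neurons at 467 CPM (459 to 474) under E14 and 1423 (1394 to 1452) under E18. The labels did not overlap in either neuron class, within counting error. Newborn neurons labelled E14 also stood apart in quality: haemoglobin genes were at 1583 CPM, against 83.5 to 107 CPM in the other classes of that label. Among the lineage groups they had the highest median mitochondrial share (7.52%) and the lowest median depth (7322 UMIs). The part of these in the E14 level was not tested.

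Nefm was also higher in neurons than in progenitors. It was at 3.69, 5.83 and 3.73 CPM in radial glia and 5.48, 13.8 and 7.22 CPM in intermediate progenitors. Newborn neurons held 38.4, 66.0 and 39.6 CPM, and maturing neurons labelled E14 and E18 held 77.3 and 58.9 CPM. In 229 endothelial, microglial and meningeal cells of all labels Nefm was at 3.27 CPM (1.74 to 5.59). Radial glia labelled E14 and E18 and intermediate progenitors labelled E14 lay inside that interval. Choroid plexus cells held less, at 1.55 CPM (0.623 to 3.19), and 134 erythroid cells had 0 UMIs. The newborn level of Nefm under E14 and E18 differed by less than the counting intervals (34.5 to 42.6 and 36.6 to 42.8 CPM). However, the log2 ratio of E18 over E14 went from 0.05 to 4.05 with the stricter cell filter described below.

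Nefl and Nefh were near the limit of detection. Over all barcodes of a library, Nefl had 61, 21 and 10 UMIs and Nefh 46, 81 and 44. The highest Nefl level in the 4 lineage classes was 1.80 CPM, from 10 UMIs in newborn neurons labelled E16, and the most UMIs, 50, were in maturing neurons labelled E14 (1.62 CPM). Nefh did not exceed 1.08 CPM in these classes. Outside them it was higher, at 9.55 CPM (6.76 to 13.1, on 38 UMIs) in 229 endothelial, microglial and meningeal cells of all labels. Neither gene reached the 5 CPM that was required in 1 of the groups compared, so neither was counted past 2-fold. Their ratios rest on few UMIs and are given only where they changed sign with the processing. How well the 3′ assay captures each of these transcripts was not measured.

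**Figure D1:**
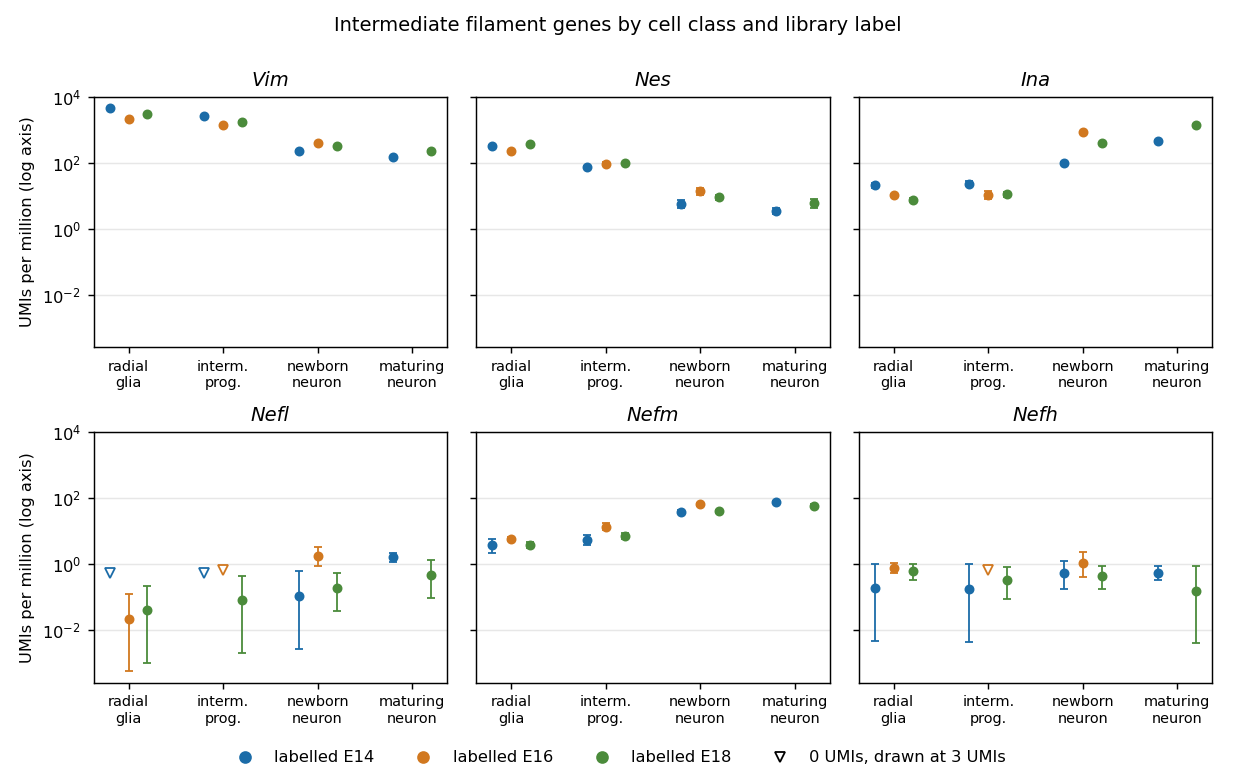
Level of each member (CPM, log axis) in radial glia, intermediate progenitors, newborn and maturing neurons, coloured by library label. Points are group levels, bars are 95% Poisson intervals, and open triangles mark 0 UMIs, drawn at 3 UMIs. Vim and Nes are highest in radial glia, Ina and Nefm in neurons, and Nefl and Nefh stay below 2 CPM in all groups.

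Counted against a 2-fold difference, the 4 members that passed the level all differed between newborn neurons and radial glia, under each label, with Ina and Nefm higher and Vim and Nes lower. The log2 ratios under E14, E16 and E18 were -4.32, -2.48 and -3.20 for Vim and -5.81, -4.05 and -5.35 for Nes. They were 2.19, 6.28 and 5.71 for Ina and 3.38, 3.50 and 3.41 for Nefm. Of all genes that passed the level, 35.1%, 35.3% and 33.7% were past 2-fold in these comparisons. In maturing neurons the same 4 members were past 2-fold in the same directions, where 40.2% (E14) and 42.3% (E18) of genes were. Their log2 ratios to radial glia under E14 and E18 were -4.92 and -3.70 for Vim, -6.56 and -5.95 for Nes, 4.47 and 7.55 for Ina, and 4.39 and 3.98 for Nefm.

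Taken as 1 class, intermediate progenitors differed from radial glia mainly in Nes. Their clusters differed widely in Vim, as given below, so the class level of Vim is that of a mixture. Nes was past 2-fold lower under each label and Vim was not. Ina, at log2 ratios of 0.16, -0.02 and 0.55, was not past 2-fold either. Under E14 and E18 both Ina levels lay under the highest non-neuronal level given above for the label. Nefm was past 2-fold higher under E16 alone (log2 1.24, interval 0.82 to 1.64), against 0.57 and 0.95 under E14 and E18. Under E14 both Nefm levels, and under E18 that of radial glia, lay inside the non-neuronal interval given above. The share of genes past 2-fold was 16.4%, 16.8% and 14.5%. Whether Nefm differs between labels here was not tested. Over the alternatives run its ratio lay between -1.08 and 1.96 under E14, 0.59 and 1.34 under E16, and 0.33 and 1.27 under E18, so none of these calls is firm. Vim reached -1.22 under E14 and -1.13 under E18, and Nes under E16 came to -0.91 at its nearest to 0. With doublets kept Ina was at log2 -1.72 under E14 and -1.50 under E18.

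The directions of Vim, Nes and Ina in both neuron classes were the same under all alternatives run that left 50 cells in the class, but sizes moved. The newborn Vim ratio lay between -4.55 and -1.84 under E14, -2.63 and -1.17 under E16, and -3.40 and -1.88 under E18. That of Nes lay between -5.98 and -2.22, -4.33 and -2.08, and -5.72 and -2.80 in label order. With a stricter cell filter (at least 2000 genes and at most 5% mitochondrial UMIs), which left 52 newborn neurons labelled E14, their Nefm log2 ratio turned to -0.83 and Ina, at 0.73, was no longer past 2-fold, and with doublets kept Ina in neurons labelled E18 was at 3.22 (newborn) and 5.07 (maturing) in place of 5.71 and 7.55.

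The neuronal members' share of all filament UMIs sums up the exchange without reference to total depth. Ina, Nefl, Nefm and Nefh together made up 0.511%, 0.716% and 0.363% of the 6 members' UMIs in radial glia, and 1.08%, 1.60% and 0.996% in intermediate progenitors. In newborn neurons the share was 36.8% (95% Clopper-Pearson interval 35.2 to 38.4) under E14, 69.1% (68.0 to 70.2) under E16 and 57.3% (56.5 to 58.2) under E18. In maturing neurons it was 78.2% (77.6 to 78.7) under E14 and 86.6% (85.9 to 87.2) under E18. The newborn values moved strongly with the processing. With the stricter cell filter, which left 52, 293 and 548 of these cells, they were 1.97%, 21.5% and 13.7%. At a coarser clustering (Leiden resolution 0.5) they were 14.2% under E14 and 20.1% under E18, while the E16 value was 70.5%. No order of the labels is therefore read from them.

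Within each label, total filament expression was lower in newborn and maturing excitatory neurons than in both progenitor classes, even though Ina was high. The 6 members together were at 4871, 2420 and 3294 CPM in radial glia, 2711, 1517 and 1882 CPM in intermediate progenitors, and 367, 1306 and 764 CPM in newborn neurons. Maturing neurons held 699 CPM under E14 and 1712 CPM under E18. Cajal-Retzius neurons, outside these classes, were above intermediate progenitors, at 1603 CPM under E16 and 1990 under E18. GABAergic cells were above them under E18 (1965 CPM) and below them under E14 (1214 CPM) and E16 (1425 CPM).

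Cells were also ranked without using the borders between the 4 classes. All cells of the 4 excitatory classes were ranked within a library by the ratio of neuron to radial glia marker UMIs, none of them a member, and cut into 10 equal bins. Under E14, Vim went from 4657 CPM in bin 1 to 2298 in bin 2, 315 in bin 3 and 186 in bin 4, and Nes from 315 to 58.3, 9.18 and 5.13 CPM. Ina over the same bins was at 18.2, 34.6, 217 and 267 CPM and reached 523 CPM in bin 10. Nefm was at 3.30, 8.42, 42.5 and 64.1 CPM and stayed between 59.1 and 78.8 CPM thereafter.

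The neuronal share first passed 50% in bin 4 under E14, bin 10 under E16 and bin 7 under E18. The bins hold different mixtures in each library: bin 4 held 59.8% maturing neurons under E14, whereas the first 7 bins under E16 were at least 96.7% radial glia. The total of the 6 members was lowest in bins 4, 9 and 6, with 523, 1137 and 960 CPM, and was higher in the last bin, with 757, 1284 and 1031 CPM. Under E18, Vim was at 3122 CPM in bin 3 and 3123 CPM in bin 4, which differ by less than counting error, and at 2683 CPM in bin 1. Nes was at 398, 358 and 229 CPM in bins 1, 3 and 4. Bin 3 was 94.7% radial glia and bin 4 51.5% intermediate progenitors.

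**Figure D2:**
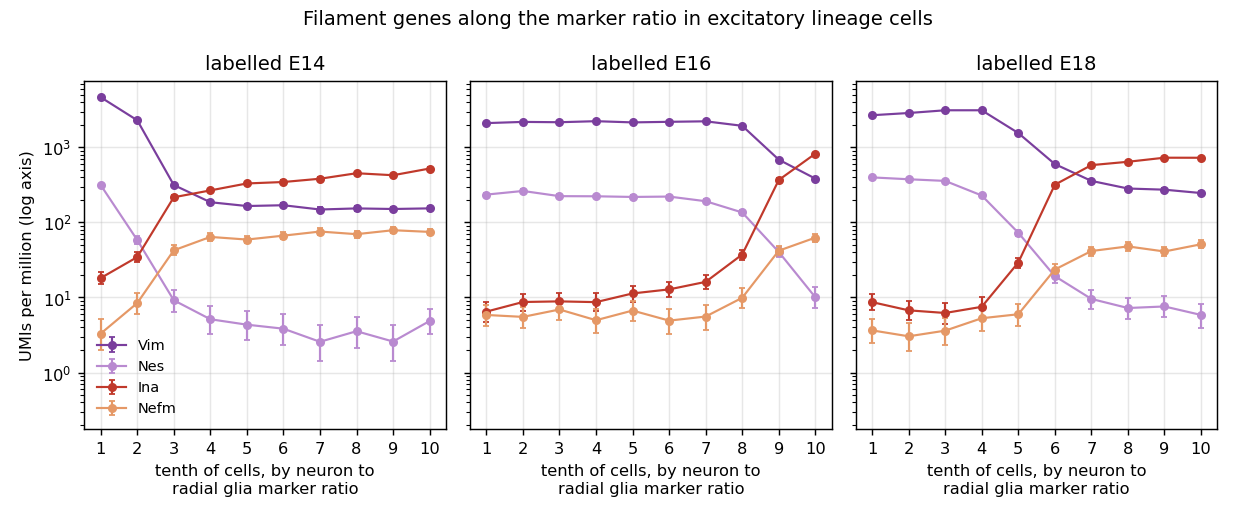
Levels of Vim, Nes, Ina and Nefm (CPM, log axis) in 10 equal bins of excitatory lineage cells, ranked within each library by the log ratio of neuron to radial glia marker UMIs. Lines join group levels and bars are 95% Poisson intervals. Vim and Ina lines cross between bins 3 and 4 under E14, 9 and 10 under E16, and 6 and 7 under E18.

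Single cells were then asked whether both kinds of filament transcript were found together. Each cell was thinned to 2000 UMIs, and 1 to 20 cells per class and label below that depth were left out. Among newborn neurons, 5.01%, 18.4% and 11.8% of cells in label order held a UMI of Vim or Nes together with one of a neuronal member, and the products of the single shares were 6.08%, 24.4% and 13.0%. In maturing neurons 10.0% (E14) and 23.6% (E18) held both, beside products of 10.3% and 23.9%. The product lay inside the counting interval of the joint share in all of these groups but newborn neurons labelled E16, where that interval was 15.4% to 21.7%.

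The distance was widest in newborn neurons labelled E16. There 36.0% of the 297 cells with a neuronal member also had a Vim UMI, against 60.6% of the 307 cells without. Under E18 these Vim shares were 35.5% and 41.1%, and under E14 25.8% and 32.1%. Free RNA bears on such shares: in 134 erythroid cells, which should lack all 6 genes and had a median depth of 32327 UMIs, 5.22% had a Vim UMI after thinning and none had Nes, Ina or Nefm, which allows up to 2.72%. Of these cells 124 were labelled E16, so the value describes mainly that library. In the 9 erythroid cells labelled E18, Vim was at 156 CPM (112 to 212), near its 224 CPM in maturing neurons of that label, and 2 of the 9 had a Vim UMI after thinning. Nes there was at 19.1 CPM (6.19 to 44.5), on 5 UMIs found in 22.2% of the 9 cells. The 8.98 and 5.94 CPM of Nes in newborn and maturing neurons labelled E18 were not above this value. GABAergic cells labelled E18 held less Vim than the 9 cells, at 78.2 CPM (53.8 to 110), so the 9 cells do not set an even background for that library. In the 124 erythroid cells labelled E16, Nes was at 1.95 CPM (0.843 to 3.85). In choroid plexus cells, 1.94% had Ina after thinning. Of 229 endothelial, microglial and meningeal cells, 2 were too shallow to thin. After thinning none of the others had Ina and 90.7% had Vim, which such cells express. Unthinned, 6.55% of the 229 had Ina, at 8.55 CPM. In radial glia 4.20%, 4.01% and 2.76% of cells had a neuronal member. Unthinned, both kinds were found in 29.6%, 54.7% and 44.2% of newborn neurons, whose median depths were 7322, 8636 and 8269 UMIs.

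Radial glia were also ranked by their share of UMIs from G2/M genes and cut into 4 equal bins. Under E14, Vim was at 6034 CPM in the least mitotic bin and 4009 in the most mitotic, with 4566 and 3987 CPM between them. Under E18 it was at 3259, 3005, 2692 and 2791 CPM from the least to the most mitotic bin, and under E16 at 2262, 2161, 2038 and 2253 CPM, where the outer intervals overlap and the third bin is lower. Nes was higher in each further bin under E16, at 177, 203, 230 and 266 CPM. Under E18 its values were 337, 363, 352 and 401 CPM and under E14 314, 367, 263 and 353 CPM, neither with a single direction. Median depth also differed, at 11293 and 18531 UMIs in the outer bins under E14, and its part in the result was not tested.

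Intermediate progenitors split into 3 clusters that differed in Vim under every label. The cluster led by Efl1, Neurog2 and Eomes had 3676, 2583 and 2623 CPM, and the cluster led by Gadd45g and histone genes 1278, 1308 and 1337 CPM. The cluster led by Ppp1r17 and mitotic genes had 818, 946 and 825 CPM. Nes followed the same order, from 95.5, 170 and 130 CPM in the first to 24.5, 52.8 and 43.9 CPM in the third. Ina stayed at or below 24.4 CPM in all of them.

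Maturing neurons labelled E14 fell mainly into cluster 0 (1326 cells) and cluster 10 (727 cells). Bcl11b, which encodes a transcription factor of subcerebral projection neurons, was at 110 CPM in the former and 706 CPM in the latter. Ina was at 218 CPM (211 to 225) in cluster 0 and 793 CPM in cluster 10, while Nefm was at 72.5 and 88.6 CPM and Vim at 150 and 126 CPM, so these clusters differed more in Ina than in Nefm. In the cluster led by Crym, Ina was at 748 CPM in 76 cells labelled E14 and 1443 CPM in 445 labelled E18.

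Newborn neurons also fell into clusters of unequal level. Under E14 the cluster led by Selenom and Pdzrn3 had 112 CPM of Ina, and that led by Cxcl12 45.0 CPM, with Vim at 168 and 398 CPM. Nefm was at 47.8 and 8.45 CPM in this pair, a wider ratio than that of Ina. Under E18 the cluster led by Pcp4 had 559 CPM of Ina and 240 of Vim, and that led by Neurod1 95.8 and 439 CPM. Within each of these labels the cluster with less Ina thus had more Vim. Different clusters made up the newborn class under each label, and the part of this makeup in its differences between labels was not tested.

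Neurons outside the 4 classes had high Ina and, in part, little Vim. In the GABAergic lineage, which gives rise to inhibitory interneurons, Ina was at 1153, 1015 and 1837 CPM and Vim at 33.4, 272 and 78.2 CPM, over 56, 74 and 72 cells. Their neuronal share was 96.3%, 77.7% and 95.7%. Cajal-Retzius neurons, which are glutamatergic, held 967 CPM of Ina and 596 of Vim under E16 (130 cells), and 1521 and 436 CPM under E18 (61 cells). Nefm in them was at 31.0 CPM under E16, where no cell was named a maturing neuron, and at 21.5 CPM under E18, below the 58.9 CPM of maturing excitatory neurons of that label.

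**Figure D3:**
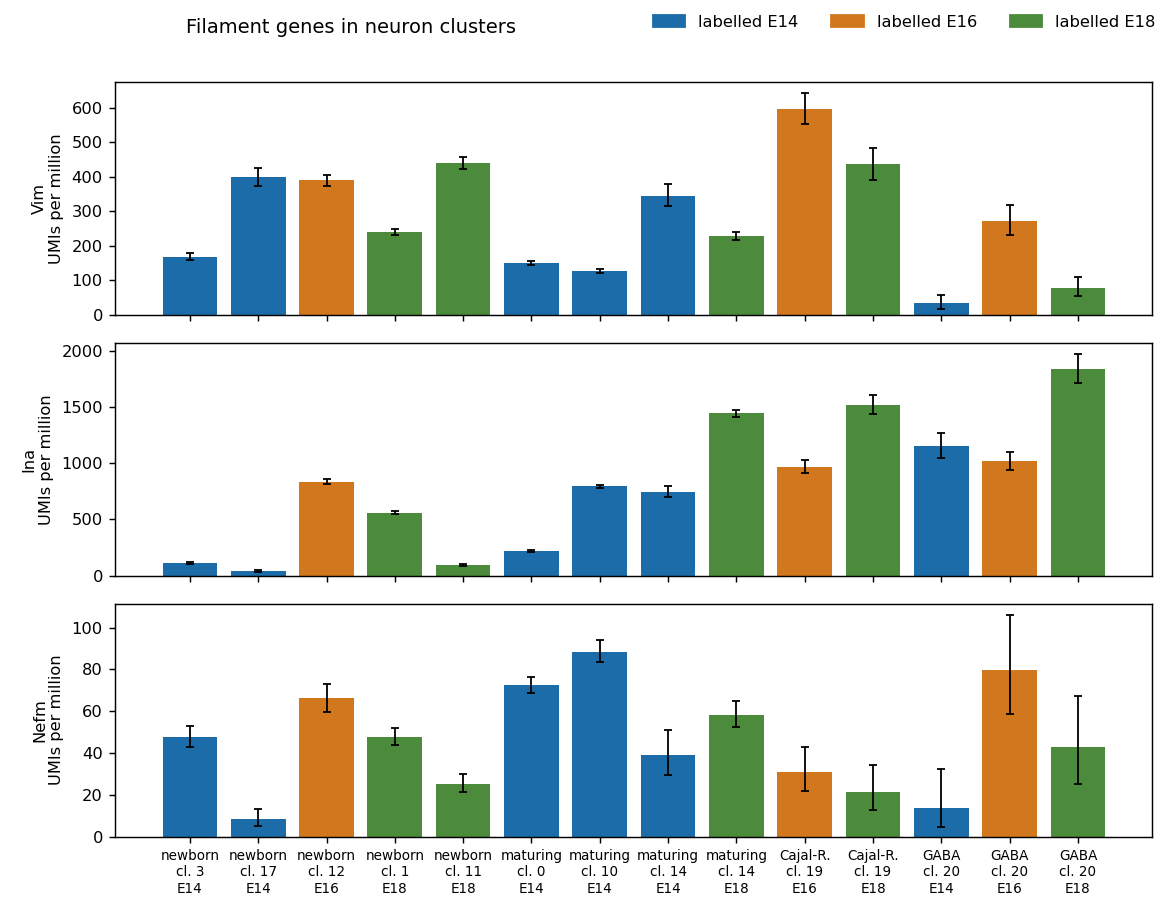
Vim, Ina and Nefm levels (CPM, each axis from 0) in each neuron cluster and label with at least 50 cells, coloured by label. Bars are group levels and lines 95% Poisson intervals. Ina spans 45.0 to 1837 CPM across these groups, and the lowest Ina level, in the newborn cluster 17 labelled E14, goes with a Vim level of 398 CPM.

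Between labels, 0 to 2 members were past 2-fold in each comparison. In radial glia, Vim was past 2-fold lower under E16 than E14 (log2 -1.05), where 12.9% of genes were past 2-fold. Ina was lower under E18 than E14 (log2 -1.47), where 6.28% were. Both of these Ina levels were under the highest non-neuronal level given above for their label. No member was past 2-fold between E18 and E16, where 3.76% of genes were. With mitochondrial, ribosomal protein and haemoglobin genes left out of the total, no member was past 2-fold between E16 and E14, although Vim, at log2 -0.95, stayed near the threshold. Its range over all alternatives run was -1.12 to -0.88. Radial glia labelled E14 lay mainly in clusters 5 and 8 and those labelled E16 in clusters 2, 6, 7 and 9, and the part of this makeup in the result was not tested. In intermediate progenitors, Ina was lower under E16 (log2 -1.16) and E18 (-1.08) than under E14, and Nefm higher under E16 than E14 (1.33), where 15.6% (E16 against E14) and 5.52% (E18 against E14) of genes were past 2-fold. Between E18 and E16 no member was, with 5.41% of genes. The makeup of this class differed too: the Vim-rich cluster led by Efl1, Neurog2 and Eomes held 314 of 489 cells under E14, 85 of 414 under E16 and 514 of 1084 under E18. Each of these counts in radial glia and intermediate progenitors that was above 0 fell to 0 under at least 1 alternative.

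In newborn neurons 3 of the 4 calls between labels were of Ina. It was higher under E16 (log2 3.12) and E18 (2.05) than under E14, and lower under E18 than E16 (-1.07), where 13.4%, 5.21% and 7.75% of genes were past 2-fold. Over the alternatives run the first lay between 0.74 and 4.10 and the second between 1.10 and 2.09. With the libraries clustered separately, the first, at 0.74, was no longer past 2-fold and the third turned to 0.44. Nes was higher under E16 than E14 (1.22), on 75 and 54 UMIs, and turned to -0.49 with the stricter cell filter. In maturing neurons Ina was higher under E18 than E14 (log2 1.61, interval 1.57 to 1.65), where 6.68% of genes were past 2-fold, and stayed between 1.09 and 2.36 under the alternatives run. The shares of maturing cells in cluster 0 differ between these labels, with 1326 cells under E14 and 11 under E18, and their part in the result was not tested.

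Of 16 other intermediate filament genes, 5 to 8 passed the level in each comparison with radial glia. In neurons 0 or 1 of them were past 2-fold higher and 2 to 4 lower, where 33.7% to 42.3% of all genes were past 2-fold. The higher one was Iffo2, with log2 ratios of 1.01, 1.21 and 0.66 in newborn neurons and 1.41 and 0.62 in maturing neurons, so it was past 2-fold under E14 and E16. Lmnb1 and Lmnb2, the B-type lamins of the nuclear envelope, were past 2-fold lower in newborn and maturing neurons under every label that had them. The log2 ratios of Lmnb1 were -1.70, -1.40 and -1.48 in newborn neurons and -1.75 and -1.79 in maturing neurons. Gfap, the filament gene of astrocytes, was at 6.27 CPM in radial glia labelled E14 and lower in newborn neurons there (log2 -4.87, interval -7.97 to -2.90, on 2 UMIs). Prph, encoding peripherin, was at 8.42 CPM in radial glia labelled E18, above its level in newborn (0.305 CPM) and maturing neurons (1.41 CPM). The list's median log2 ratio to radial glia ran from -0.72 to -0.11 in neurons, beside -0.22 to -0.08 over all genes of at least 50 CPM.

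Genes that link, phosphorylate or turn over filaments were a list of 16, of which 10 or 11 passed the level. Cdk5r1, which encodes the activator of the neuronal kinase Cdk5, was past 2-fold higher in neurons throughout, with log2 ratios of 3.54, 4.79 and 3.70 in newborn and 4.21 and 4.35 in maturing neurons. Uchl1, a neuronal ubiquitin hydrolase, was higher too, at 1.90, 1.32 and 1.93 in newborn and 1.98 and 2.05 in maturing neurons. Plec, encoding the filament linker plectin, was lower, at -2.11, -1.75 and -2.60 in newborn and -2.93 and -2.16 in maturing neurons. It was not the lowest throughout: Cryab under E14 and Hspb1 under E18 had lower ratios than Plec in both neuron classes. Dst, encoding the linker dystonin, was higher in newborn neurons under each label (1.52, 1.43 and 1.59). In all, 3 to 5 genes of the list were higher and 1 or 2 lower in each neuron comparison, where 33.7% to 42.3% of all genes were past 2-fold. The list medians were 0.20 to 0.68.

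For each member, the genes with the most similar levels over the 11 class and label groups were found among 6150 genes, as a description, since the groups share libraries and cells of a class are alike in many genes. Nearest to Vim were Haus4, of the spindle complex augmin, Zfp36l2, a messenger RNA decay factor, and Sox21, a progenitor transcription factor, with Pearson r of 0.989, 0.989 and 0.988 on log2 levels. Nes was nearest to the tubulin gene Tuba1c (0.995), Zfp36l2 (0.993) and C1h9orf85 (0.992). Ina was nearest to Znhit1 (0.992), Sec11c, of the signal peptidase (0.984), and the kinesin adaptor gene Kifap3 (0.981). Nefm was nearest to the actin regulator Wasf1 (0.985), Csrnp3 (0.981) and the kinase gene Pak5 (0.980). Among the members, r was 0.975 between Vim and Nes, 0.912 between Ina and Nefm, and -0.863 between Vim and Ina.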

How the data were processed

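Single-cell 3′ UMI counts of 3 rat cortex libraries were used as the authors deposited them: whole-number counts per gene and barcode, not normalized, made with Cell Ranger 6.0.1 per the file headers, on build mRatBN7.2 per the submitters' processing notes. Total counts were 62740631, 80974234 and 73727823 UMIs for the labels E14, E16 and E18, over 7100, 6707 and 6937 barcodes. Barcodes with at least 1000 genes and at most 10% mitochondrial UMIs were kept (4444, 5193 and 5690). Scrublet in Scanpy 1.11.5 scored doublets, and the highest scores were removed at 0.8% per 1000 cells (158, 216 and 259 cells). All libraries were clustered together, without the members, by the Leiden algorithm at resolution 1 (leidenalg 0.10.2). The clustering used 2000 variable genes, 30 principal components and 15 nearest neighbours. Marker genes used for naming were not held out of it, so the names are not independent of the clusters. Clusters were named for the class of highest mean marker fold, among classes with at least 3 markers raised 1.2-fold in at least 20% of cells, and only if no other class outnumbered it in the 10 leading genes. Of 123 marker symbols in 14 classes, 122 were in the files. This is the second version of the naming rule. The first required the 3 raised markers of the highest-scoring class and left 605 cells labelled E16 unnamed, and it was replaced after clusters and member levels had been seen. One cluster stayed unnamed (0.117%, 7.94% and 0.700% of cells). The members and gene lists were chosen with earlier results of these data known.

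UMIs were summed per class and label and given as CPM of the sum, with exact Poisson intervals for levels, Clopper-Pearson intervals for shares, and conditional binomial intervals for ratios, all at 95%. Because each label has 1 library, no test was run, and intervals cover counting error only. A gene was compared where it had at least 5 CPM in 1 of the groups and was called past 2-fold. Groups needed 50 cells. The named genes were the 6 members, partner genes that passed the level, the 3 genes most like each member, and stage genes of radial glia. Only some of the partner genes past 2-fold are given by value. A planned division of neurons by subtype genes is not reported here. Scripts were tested on simulated counts. Python 3.11.15, numpy 2.4.6, scipy 1.17.1 and pandas 2.3.3 were used. Alternatives for the cell filter, doublets, clustering, naming, scaling, pseudocount, fold and thinning depth were run.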

Additional observations from a re-analysis of the deposited data

Results flagged for a closer look

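The barcodes that the cell filter left out, which enter none of the comparisons above, also carried member UMIs. In 2656 left-out barcodes labelled E14, the neuronal members made up 47.8% of the 6 members' UMIs, against 27.6% in the kept cells. The value was 11.9% in 1514 barcodes labelled E16, against 5.25% in kept cells, and 22.0% in 1247 barcodes labelled E18, against 13.99% in kept cells. They are given because they lie above the level of the kept cells in data outside the main measurement.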

How the results depend on the processing

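The 4 members past 2-fold in newborn and maturing neurons stayed 4 under every alternative run, except 2 in newborn neurons labelled E14 with the stricter cell filter. The small counts in intermediate progenitors and between labels were less stable. Counts of members past the fold moved by over 1.5 times in 22 values against radial glia and 42 between labels, and 89 and 96 did not. These counts are of at most 4 members, so a change of 1 gene can move them. Neuronal shares moved beyond their counting interval in 71 values and stayed inside it in 49. Log2 ratios of single members that were past 2-fold changed sign in 10 values, 7 of them of Nefl or Nefh. Ratios under 2-fold changed sign in 43 values of Vim, Nes, Ina or Nefm and 19 of Nefl or Nefh. Among them, with doublets kept, Ina in radial glia went from -0.50 to 1.88 (E18 over E16) and Nefm there from 0.66 to -0.89 (E16 over E14). With the stricter cell filter, Vim in newborn neurons went from 0.79 to -0.40 (E16 over E14) and Nes from 0.63 to -0.52 (E18 over E14). Apart from the first 10, 943 ratios lay inside the interval and 339 outside. The cause of each change was not tested. The first naming rule, chosen for comparison after seeing the data, left 4 newborn neurons labelled E16 and so gave no value for them, and moved no other count or share listed here. No paired analysis was possible because each label has 1 library. The reversed ratios of Nefl and Nefh rest on few UMIs.

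Adding 10 CPM to each level gave counts of members past the fold against radial glia of 1 for intermediate progenitors labelled E16. Counts between labels were 0 for radial glia, E18 against E14, 0 for intermediate progenitors, E16 against E14, 0 for intermediate progenitors, E18 against E14 and 1 for newborn, E16 against E14. Leaving mitochondrial, ribosomal protein and haemoglobin genes out of the total gave counts between labels of 0 for radial glia, E16 against E14. Per-cell means in place of sums gave counts of members past the fold against radial glia of 2 for intermediate progenitors labelled E14. Between labels the counts were 2 for radial glia, E16 against E14 and 1 for newborn, E16 against E14. With it, neuronal shares stood at 40.1% (newborn, E14), 48.4% (newborn, E16), 41.2% (newborn, E18), 64.5% (maturing, E14) and 81.3% (maturing, E18). A 1.5-fold threshold gave counts of members past the fold against radial glia of 2 for intermediate progenitors labelled E14 and 3 for intermediate progenitors labelled E18. Between labels the counts were 3 for radial glia, E16 against E14, 2 for radial glia, E18 against E14, 2 for radial glia, E18 against E16, 1 for intermediate progenitors, E18 against E16, 4 for newborn, E16 against E14, 2 for newborn, E18 against E14, 3 for newborn, E18 against E16 and 3 for maturing, E18 against E14. Thinning to 1000 UMIs put joint detection at 0.917% (newborn, E14), 11% (newborn, E16), 4.6% (newborn, E18), 3.24% (maturing, E14) and 11.7% (maturing, E18). Thinning to 4000 UMIs put joint detection at 14.6% (newborn, E14), 35.9% (newborn, E16), 24.4% (newborn, E18), 22.2% (maturing, E14) and 39.1% (maturing, E18). The stricter cell filter (at least 2000 genes, at most 5% mitochondrial) gave counts of members past the fold against radial glia of 2 for intermediate progenitors labelled E14, 2 for intermediate progenitors labelled E18 and 2 for newborn labelled E14. Counts between labels were 2 for radial glia, E16 against E14, 0 for radial glia, E18 against E14, 1 for intermediate progenitors, E16 against E14, 0 for intermediate progenitors, E18 against E14, 1 for intermediate progenitors, E18 against E16, 2 for newborn, E18 against E14 and 2 for maturing, E18 against E14. Neuronal shares came to 1.97% (newborn, E14), 21.5% (newborn, E16), 13.7% (newborn, E18), 54.7% (maturing, E14) and 71.2% (maturing, E18). With it, joint detection stood at 1.92% (newborn, E14), 15.4% (newborn, E16), 6.57% (newborn, E18), 12.7% (maturing, E14) and 32.1% (maturing, E18). It turned log2 ratios to -0.83 for Nefm (newborn neurons over radial glia, E14) and -0.49 for Nes (newborn neurons, E16 over E14). A looser cell filter (at least 500 genes, at most 20% mitochondrial) gave counts of members past the fold against radial glia of 2 for intermediate progenitors labelled E14 and 3 for intermediate progenitors labelled E18. Between labels the counts were 2 for radial glia, E16 against E14 and 1 for intermediate progenitors, E16 against E14. With it, neuronal shares stood at 40.6% (newborn, E14), 72.4% (newborn, E16) and 79.5% (maturing, E14). Keeping doublets gave counts of members past the fold against radial glia of 3 for intermediate progenitors labelled E14 and 2 for intermediate progenitors labelled E18. Between labels the counts were 1 for radial glia, E18 against E16, 1 for intermediate progenitors, E16 against E14 and 0 for intermediate progenitors, E18 against E14. With it, neuronal shares stood at 47.2% (newborn, E14), 58.6% (newborn, E18) and 79.6% (maturing, E14). Joint detection came to 13.7% (newborn, E18). Removing doublets at 2 times the rate gave counts of members past the fold against radial glia of 2 for intermediate progenitors labelled E14 and 2 for intermediate progenitors labelled E18. Counts between labels were 0 for newborn, E18 against E16. Neuronal shares came to 47.5% (newborn, E14), 67.8% (newborn, E16), 60.2% (newborn, E18), 81.5% (maturing, E14) and 85.6% (maturing, E18). It turned log2 ratios to -0.13 for Nefl (intermediate progenitors over radial glia, E18). Leiden resolution 0.5 gave counts of members past the fold against radial glia of 1 for intermediate progenitors labelled E16. Counts between labels were 2 for radial glia, E16 against E14, 0 for intermediate progenitors, E16 against E14 and 2 for newborn, E18 against E16. Neuronal shares came to 14.2% (newborn, E14), 70.5% (newborn, E16), 20.1% (newborn, E18), 76.2% (maturing, E14) and 79.6% (maturing, E18). With it, joint detection stood at 3.25% (newborn, E14), 5.75% (newborn, E18) and 18.1% (maturing, E18). Leiden resolution 2 gave counts of members past the fold against radial glia of 2 for intermediate progenitors labelled E14. Between labels the counts were 2 for radial glia, E16 against E14, 1 for intermediate progenitors, E16 against E14, 2 for newborn, E18 against E16 and 3 for maturing, E18 against E14. With it, neuronal shares stood at 72.1% (newborn, E16), 43.2% (newborn, E18), 79.7% (maturing, E14) and 85.6% (maturing, E18). Joint detection came to 8.42% (newborn, E18) and 31.5% (maturing, E18). It turned log2 ratios to 0.15 for Nefh (maturing neurons over radial glia, E18) and 0.33 for Nefh (maturing neurons, E18 over E14). Clustering each library on its own gave counts of members past the fold against radial glia of 2 for intermediate progenitors labelled E14 and 1 for intermediate progenitors labelled E16. Counts between labels were 2 for radial glia, E16 against E14, 1 for intermediate progenitors, E16 against E14 and 0 for intermediate progenitors, E18 against E14. Neuronal shares came to 49.9% (newborn, E14), 40.5% (newborn, E16), 62% (newborn, E18), 80.1% (maturing, E14) and 87.4% (maturing, E18). With it, joint detection stood at 6.79% (newborn, E14) and 13% (newborn, E16). It turned log2 ratios to -0.37 for Nefh (newborn neurons, E16 over E14), 0.44 for Ina (newborn neurons, E18 over E16) and 0.32 for Nefh (newborn neurons, E18 over E16). Allowing the members among the clustering genes gave counts of members past the fold against radial glia of 2 for intermediate progenitors labelled E14 and 3 for intermediate progenitors labelled E18. Neuronal shares came to 39.2% (newborn, E14), 47.2% (newborn, E18) and 82.8% (maturing, E18). With it, joint detection stood at 9.24% (newborn, E18). Naming cells one by one gave counts of members past the fold against radial glia of 2 for intermediate progenitors labelled E14, 1 for intermediate progenitors labelled E16 and 2 for intermediate progenitors labelled E18. Between labels the counts were 3 for radial glia, E16 against E14, 0 for intermediate progenitors, E16 against E14, 0 for intermediate progenitors, E18 against E14 and 0 for newborn, E18 against E16. With it, neuronal shares stood at 39.7% (newborn, E14), 51.8% (newborn, E16), 53.6% (newborn, E18), 79.4% (maturing, E14) and 84.5% (maturing, E18). It turned log2 ratios to -0.13 for Nefh (newborn neurons, E16 over E14) and 0.033 for Nefh (maturing neurons, E18 over E14).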
